A study of Mus musculus with 12 samples.

Results

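The cytosolic ribosomal protein genes are the genes of the protein subunits of the ribosome that translates messenger RNA in the cytoplasm. Rows were taken by name: symbols that begin with Rpl or Rps and a digit, Rplp0 to Rplp2 and Rpsa, leaving out the S6 kinase genes and names that mark a pseudogene. The rule found 88 of the 14219 genes in the deposited table. They comprised 31 genes of the small subunit, 43 of the large subunit, 3 of the P-stalk, 9 paralogs or gene copies and 2 that carry such a name without being ribosomal proteins (Rps19bp1 and Rpl7l1). RNA came from plasma cells, the antibody-secreting cells of the B lineage, sorted from the bone marrow of C57BL/6 mice of genotype BLTcre.mcl1fl/+. A human CD4 reporter was induced in them with tamoxifen, and 60 or 270 days afterwards cells that carried it (called marked here) were sorted apart from cells that did not (unmarked). All 4 groups share the genotype of the mice and the tamoxifen, and each has 3 libraries. That genotype includes a floxed Mcl1 allele, which is a target of Cre. Whether it was recombined in marked or unmarked cells was not tested. An effect of its loss in marked cells cannot be told apart from marking. The sources used here give neither the driver of the Cre nor the number of mice behind a library, so p-values measure only the spread between these libraries.

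Each ribosome carries 1 copy of most of these proteins, and the genes are transcribed together in growing cells. Their messenger RNAs belong to the TOP class, which begin with a C followed by a run of pyrimidines and whose translation is controlled by the kinase mTORC1 and the binding protein Larp1. Plasma cells depend on high translation to secrete antibody. The mouse genome also holds many processed pseudogenes and retrogenes copied from these messenger RNAs, some of which differ from the parent by few bases or none.

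Sequences of a gene and its copy are shown first, because 41 of the 88 members have a row named as their pseudogene in the table. Rps6, the small subunit protein phosphorylated by S6 kinase, has 5 exons (GRCm38, chromosome 4, minus strand). Its copy Rps6-ps4 is 1 exon of 750 bases on the minus strand of chromosome 2, and all 750 were identical to a run of the 878-base Rps6 transcript in GENCODE M21. The 48 bases around the junction of exon 2 (chr4:86856728-86856751) and exon 3 (chr4:86856333-86856356) of Rps6 stand unbroken in the copy (chr2:75191661-75191708). Capitals mark the 3 bases on each side of the junction.
Rps6: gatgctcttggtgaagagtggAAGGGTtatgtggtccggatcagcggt
Rps6-ps4: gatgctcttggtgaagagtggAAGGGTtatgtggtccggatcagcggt

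Rps27, another small subunit gene, has the retrogene copy Rps27rt. The first bases of the 2 genes (RefSeq, GRCm38.p6, both minus strand, chr3:90213621-90213650 and chr9:114982712-114982741) share the run in capitals, which is 27 bases long in these windows.
Rps27: ctcCTTTCCGGCGGTGACGACCTCCCTACG
Rps27rt: tgCTTTCCGGCGGTGACGACCTCCCTACGa

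RefSeq promoters were found for 64 of the 88 genes. Of these 64, 46.9% had a C followed by at least 4 C or T within 5 bases of an annotated start, against 23.9% of the 9639 genes of the table with a promoter. Starts of 4 members described below are shown as examples, 15 bases before to 15 from the start, with the pyrimidine run in capitals. The windows are chr9:66946071-66946100 (plus strand) for Rps27l, chr3:28805493-28805522 (plus) for Rpl22l1, chr7:45128731-45128760 (minus) for Rpl13a and chr9:64173372-64173401 (plus) for Rpl4. Rpl4 had no such run within 5 bases of this RefSeq start; its GENCODE start, 64173375, is the fourth base of the window and lies in a run of pyrimidines, so the result depends on the start used.
Rps27l: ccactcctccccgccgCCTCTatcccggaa
Rpl22l1: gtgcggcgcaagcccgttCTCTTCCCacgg
Rpl13a: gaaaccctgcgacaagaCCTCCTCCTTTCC
Rpl4: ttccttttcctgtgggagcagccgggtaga

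Fixed motifs were searched on both strands in the window from 250 bases before to 50 bases after the start. The ETS family core CCGGAAG was in the promoters of 39.1% of the members and 20.4% of the table's genes, and the YY1 core AAGATGG in 15.6% and 8.53%. The E-box CACGTG was in 9.38% and 11.7%, and TATAAA in 10.9% and 8.49%. The ETS and YY1 cores can share the bases AAG. A match describes these letters only.

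The libraries held 7449468 to 15943547 reads over the genes of the table. The 8 plasma cell markers, Jchain and Sdc1 among them, were all in the table and summed to 89990 to 325847 CPM (a gene's reads scaled to an equal total for every library). Jchain alone took up 7.90% to 31.3% of a library's reads, so this sum says little about the other markers. Between 0.236% and 3.18% of the reads lay on features resembling ribosomal RNA in 10 libraries, but 11.97% did in day 60 marked library 2 and 29.8% in day 270 marked library 2. Compared with TMM scaling, which matches the bulk of genes between libraries, scaling by total reads shifted the all-gene median log2 fold change: with marking by -0.12 on both days, and between days by 0.11 in unmarked and 0.10 in marked cells. Of 9 erythroid markers 8 were in the table (Klf1 was not), 4 were called higher in marked cells with days averaged, and the 8 summed to 38.9 to 69.0 CPM in unmarked and 107 to 350.5 in marked cells at day 60, and to 30.2 to 169 and 185 to 802 at day 270. The 9 macrophage markers, all in the table, summed to 105 to 315 CPM (unmarked) and 147 to 258 CPM (marked) at day 60, and to 166 to 357 and 265 to 662 CPM at day 270. The 10 neutrophil markers, also all present, summed to 1.78 to 816 CPM over the 12 libraries. The 7 B cell markers, all present, summed to 297 to 377 CPM (unmarked) and 244 to 293 CPM (marked) at day 60, and to 359.9 to 421 and 261 to 381 CPM at day 270. With days averaged 7 of 7 were negative with marking (median -0.41), and 1 was called lower. No marker in the table was at 0 in all libraries. In bulk samples, fewer cells of a type and less RNA per cell cannot be told apart, and the part of these RNAs in the results was not tested.

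The members took up 2.02% to 3.19% of each library's reads. Their mean level over the 12 libraries spanned from 0.205 CPM for Rpl24 to 1979 CPM for Rplp0. Of the 88, 9 lay over 1000 CPM, 44 over 100 CPM, 21 under 10 CPM and 3 under 1 CPM. Per kb of exon, the highest members included the P-stalk gene Rplp1 (2467 CPM per kb), Rpl8 (1701), Rps15 (1578) and Rpl13a (1287), a large subunit protein also known from interferon-controlled translation. The 5 lowest were Rpl24 (0.303 CPM per kb), Rpl23a (0.369), Rps13 (1.17), the copy Rps12l1 (1.18) and Rpl5 (1.72). Genes for subunits of 1 particle thus spanned from under 1 to over 1000 CPM per kb.

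**Figure D1:**
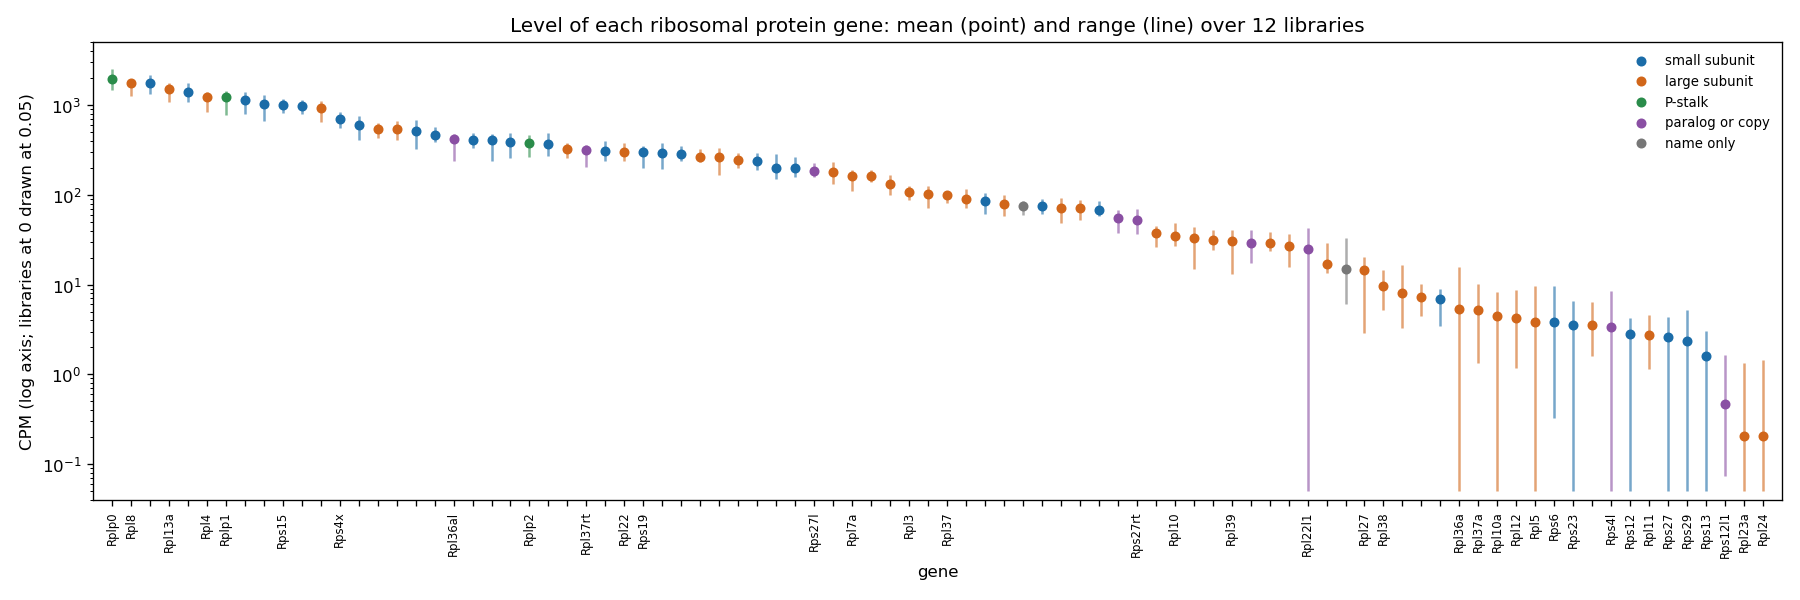
Mean CPM (points) and the range over 12 libraries (lines) of the 88 genes on a log axis, ordered by mean and coloured by role, with some of the genes described in the text labelled; libraries at 0 are drawn at 0.05 CPM. The 9 highest lie over 1000 CPM and 21 lie under 10 CPM.

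Some of the low levels lay beside high levels of copies. The table holds 72 rows named as a pseudogene of one of these genes, for 41 of the 88, and those rows summed to 3914 to 6155 CPM per library. Of the 41, 17 were below their summed pseudogenes. Of the 21 members under 10 CPM, 12 have such a row and 9 of the 12 were below their pseudogenes. These were picked by a low level, which favours this result. Rps12, Rpl17 and Rpl5 were above theirs, which summed to 1.25, 0.614 and 1.03 CPM. Among members over 100 CPM, 21 have such a row and 4 of them were below their pseudogenes. Rps6 had 3.84 CPM, and its pseudogenes 276 CPM, nearly all of it on Rps6-ps4, the copy shown above (275 CPM). Rpl10a had 4.52 CPM against 299 CPM for Rpl10a-ps1, Rpl36a 5.41 against 249 for 3 rows, and Rpl38 9.60 against 251 for Rpl38-ps2. Rpl5 had 3.86 CPM, and Gm15500, the gene that shares most of its sequence, 208 CPM. The value of such a member is that of the reads assigned to its own row.

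Over all 88 members, the share of a gene's 50-base words that also stand in transcripts of other genes moved with its level. Median level was 302 CPM in the 21 members that shared under 25% of their words, 91.7 CPM in the 34 that shared 25% to 50%, and 52.5 CPM in the 33 above. Spearman's rho across the 88 genes was -0.388 with words of 50 bases and -0.432 with words of 75. It was smaller for the level per kb of exon, -0.249 and -0.310. Median levels per kb in the 3 classes were 150, 109 and 69.1 CPM per kb with words of 50 bases, and 190, 60.0 and 66.6 with words of 75, where the order was not kept. The genes share the 12 libraries, so rho is a description. The counting of reads with several matches is not stated in those sources, and its part in the levels was not tested.

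**Figure D2:**
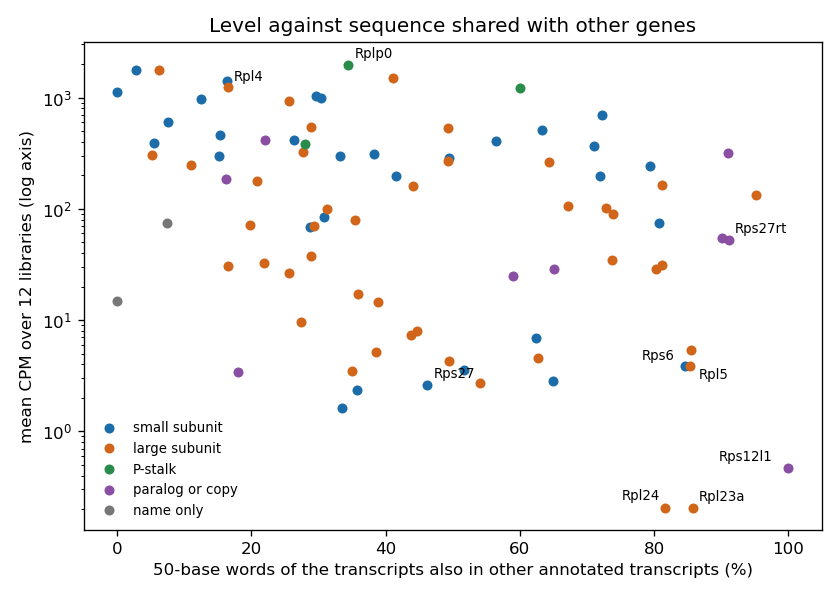
Mean CPM over 12 libraries (log axis) of the 88 genes against the percent of their 50-base words found in transcripts of other genes, coloured by role. Rpl4 shares 16.5% and lies over 1000 CPM, while Rpl23a and Rpl24 share over 80% and lie under 1 CPM; the spread at any given share is wide.

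With total-read scaling, the summed level of the 88 genes was close in the 4 groups. In unmarked cells of day 60 the 3 libraries had 29476.5, 31237 and 27036 CPM, and in marked cells 30243, 26352 and 26960.2 CPM. At day 270 the unmarked libraries had 26362, 25447 and 31925 CPM, and the marked ones 27015, 20246 and 27991 CPM. All 4 groups overlapped, with means ± SD of 29249 ± 2110 (day 60 unmarked), 27852 ± 2093 (day 60 marked), 27911 ± 3506 (day 270 unmarked) and 25084 ± 4218 CPM (day 270 marked, n = 3 each). The lowest value belonged to day 270 marked library 2, which was the lowest of the 12 for 49 of the 85 members that passed the filter on low values. With TMM scaling it was the lowest for 12, and day 270 unmarked library 2 for 40. Without ribosomal RNA-like features and Jchain in the total, the day 270 marked libraries summed to 34185, 32500 and 33183 CPM. They lay below those of day 60, with 35990 to 41830 CPM (unmarked) and 34554 to 44245 CPM (marked). The day 270 unmarked libraries, 30794 to 41463 CPM, overlapped the other groups. With TMM scaling the day 270 marked libraries lay below the day 60 unmarked ones only. These differences were not tested. Large subunit genes summed to 0.716 ± 0.00538 of the small subunit sum in unmarked and 0.697 ± 0.0646 in marked cells at day 60, and to 0.736 ± 0.0365 and 0.725 ± 0.0195 at day 270.

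**Figure D3:**
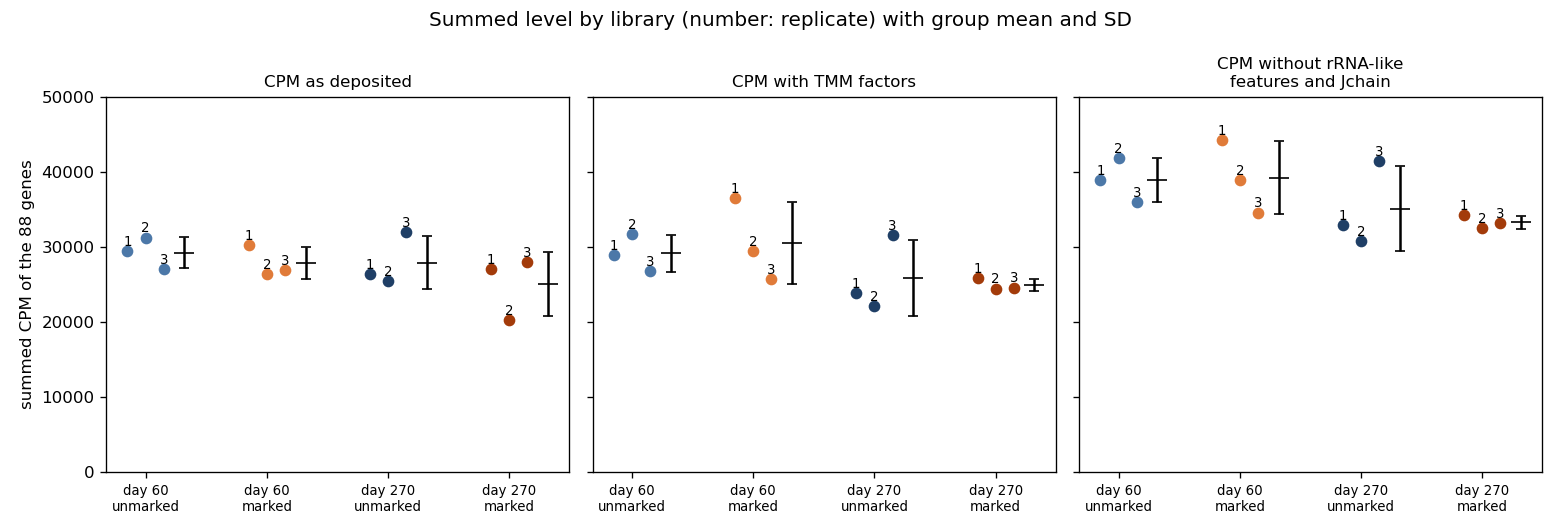
Summed CPM of the 88 genes in each library (points, numbered by replicate) with group mean and SD (n = 3) under 3 scalings: total reads, TMM, and total reads without ribosomal RNA-like features and Jchain. With total reads all groups overlap and day 270 marked library 2 is the lowest point (20246 CPM). Under the other 2 scalings day 270 marked libraries lie below those of day 60 unmarked cells, and day 270 unmarked library 2 is lowest. Without ribosomal RNA-like features and Jchain, day 270 marked libraries also lie below those of day 60 marked cells.

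Each comparison was fitted with limma across the 12704 genes that passed the filter, and calls were made where the adjusted p (Benjamini-Hochberg over those genes) was under 0.05. Of the 88 members 85 passed the filter (Rpl23a, Rpl24 and Rps12l1 did not). Log2 fold changes are on the log2(CPM + 0.5) scale with the standard error from limma.

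At day 60, no ribosomal protein gene passed the test between marked and unmarked cells. Of the 85 members 0 were called, where 24 of 12704 genes (0.189%) were, and 0 of 85 had an unadjusted p under 0.05 against 6.45% of genes. The members' median log2 fold change was -0.07, with 29 positive and 56 negative, beside a median of -0.13 over all genes. Leaving out 1 library moved the members' median to between -0.14 (without marked library 1) and 0.0040 (without unmarked library 2, 43 positive and 42 negative), with -0.12 without unmarked library 3 and -0.011 and -0.027 without marked libraries 2 and 3. With TMM scaling the members' median was 0.05, with 58 positive and 27 negative. The 95% interval lay within a 2-fold change either way for 62 members, and for all 44 members over 100 CPM. The largest positive fold changes were those of Rps6 (1.08 ± 0.76), the large subunit gene Rpl12 (0.84 ± 0.55) and Rpl36a (0.69 ± 0.86), and the largest negative ones those of Rpl5 (-0.89 ± 0.98), Rps29 (-0.79 ± 0.76) and Rps27 (-0.75 ± 0.66). All 6 genes lay under 10 CPM, and their adjusted p-values in limma were 0.902 to 0.967.

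Marked libraries did not overlap unmarked ones at day 60 for 3 members that were higher (Rpl27, Rpl36a and Rpl37) and 8 that were lower. Of all genes tested, 4.46% were higher without overlap and 11.3% lower, against 3.53% and 9.41% of the members.

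The marked and unmarked cells of day 270 gave 0 called members as well, where 61 genes (0.48%) were called. An unadjusted p under 0.05 was reached by 8 of 85 members and by 14% of genes: Rpl12, Rpl22l1, Rpl27, Rpl39, Rpl4, Rps27 and Rps3a2 with lower and Rpl37a with higher values in marked cells. The members' median was -0.15 with 17 positive and 68 negative (all genes, -0.22). It was -0.012 with 41 positive and 44 negative without marked library 2 (all genes, -0.06), and -0.05 with 32 and 53 without unmarked library 3. With TMM scaling it was -0.03, with 40 positive and 45 negative. For 62 members, among them all 44 over 100 CPM, the interval stayed within 2-fold. Largest in the positive direction were Rpl37a (1.16 ± 0.54), the Rps4x paralog Rps4l (0.67 ± 1.0) and Rpl38 (0.52 ± 0.42). Largest in the negative direction were Rpl22l1 (-2.37 ± 0.85), Rps27 (-1.42 ± 0.66) and Rps12 (-1.28 ± 0.67), with adjusted p-values of 0.231 to 0.404 in limma.

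Without overlap, 3 members were higher and 6 lower in marked cells of day 270 (all genes, 3.28% and 12%).

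Between days, unmarked cells showed no called gene at all: 0 of 12704 (0%) by limma, with 2.98% of genes and 1 of 85 members (Rpl37a) at an unadjusted p under 0.05. The members' median was -0.08, where that of all genes was 0.12, and 29 members were positive and 56 negative. The members' median was -0.015 without day 270 unmarked library 2 (40 positive, 45 negative), -0.038 without library 1 of that group and -0.020 without day 60 unmarked library 2 (36 positive, 49 negative), and it was -0.19 and -0.14 without library 3 of day 270 and of day 60. Rps6 (0.80 ± 0.76), Rpl11 (0.73 ± 0.57) and Rps13 (0.63 ± 0.73) had the largest positive values. Rpl37a (-1.23 ± 0.54), Rps23 (-0.67 ± 0.71) and Rpl10a (-0.64 ± 0.82) had the largest negative ones, and all 6 genes had an adjusted p of 1 in limma. With TMM scaling the members' median was -0.20 (all genes, 0.01), and 9 were positive and 76 negative. The interval was within 2-fold for 65 members, again with all 44 over 100 CPM. Without overlap, 2 members were higher at day 270 (Rpl4 and Rps3a3; 10.4% of genes) and 4 lower (2.39% of genes).

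In marked cells, no ribosomal protein gene passed the test between day 270 and day 60. With total-read scaling, how many had lower values depended on 1 library, while the members' median lay below that of all genes with and without it. Of the 85 members 0 were called, where 4 genes (0.0315%) were, and 6 had an unadjusted p under 0.05 (9.64% of genes): Rpl12, Rpl15, Rpl22l1, Rpl27, Rpl39 and Rps12, all with lower values. The members' median was -0.15 beside 0.02 over all genes, with 18 positive and 67 negative. Without day 270 marked library 2, the one richest in ribosomal RNA-like reads, it was -0.0075 beside 0.19 over all genes, with 41 positive and 44 negative. Rps4l (0.94 ± 1.0), Rpl5 (0.79 ± 0.98) and Rpl11 (0.78 ± 0.57) had the largest positive values, and Rpl22l1 (-2.79 ± 0.85), Rpl27 (-1.53 ± 0.44) and Rpl12 (-1.49 ± 0.55) the largest negative ones, with adjusted p-values of 0.292 to 0.837 in limma. The interval was within 2-fold for 60 members, all 44 over 100 CPM among them. With TMM scaling the members' median was -0.26 beside -0.08, with 13 positive and 72 negative. With totals without ribosomal RNA-like features and Jchain it was -0.22 beside -0.05, with 14 positive and 71 negative. All libraries of day 270 lay below all of day 60 for 16 members, 18.8% of the 85, and 0 members were higher without overlap. Of all genes, 4.04% were lower and 6.46% higher without overlap. The members share these libraries, so the 16 are not separate observations, and the difference in share was not tested. With TMM scaling 16 members (7.16% of genes) and without ribosomal RNA-like reads and Jchain 16 members (6.34% of genes) were lower without overlap. Among the 16, named because of this pattern, were Rpl12, Rpl14, Rpl15, Rpl22l1, Rpl27, Rpl27a, Rpl32, Rpl34, Rpl37, Rpl39, Rps15, Rps19, Rps21, Rps24 and Rps3a2.

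**Figure D4:**
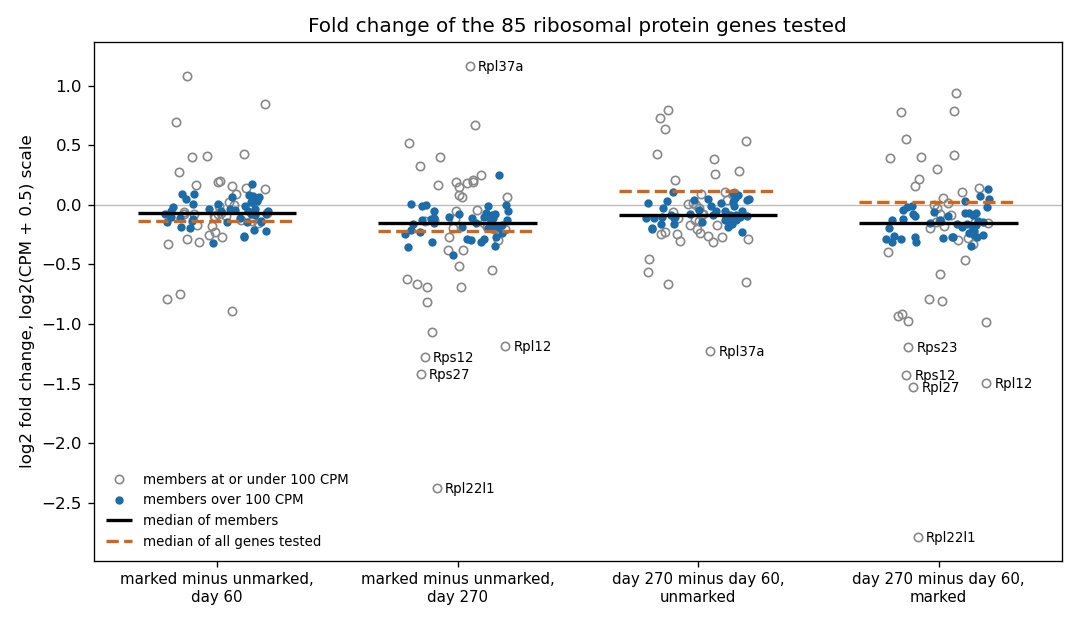
Log2 fold change of the 85 genes tested in 4 comparisons (points; filled, over 100 CPM), with the median of the members (line) and of all 12704 genes tested (dashed line), total-read scaling. Genes over 100 CPM lie between -0.42 and 0.25; labelled genes, past 1.1 in size, lie under 100 CPM. The members' median is above that of all genes in the 2 marked minus unmarked comparisons and below it in the 2 between days.

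The further contrasts also gave 0 called members. Day 270 marked against day 60 unmarked cells, the most separate pair, had 196 genes called (1.54%), with 11 members and 14.4% of genes at an unadjusted p under 0.05 and a members' median of -0.21 (all genes, -0.11). Marked minus unmarked with the days averaged had 234 called genes (1.84%), with 5 members and 16.9% of genes at that p. For day 270 minus day 60 with the populations averaged, 24 genes were called (0.189%), and the members' median was -0.12 (all genes, 0.07). The difference between days in the effect of marking had 0 called genes (0%), with 5 members and 3.05% of genes at an unadjusted p under 0.05.

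The P-stalk is the flexible arm of the large subunit that recruits translation factors, made of Rplp0 and the acidic proteins Rplp1 and Rplp2. Rplp0 (ENSMUSG00000067274, GRCm38 chromosome 5, 115559467 to 115563727) had 2269, 2407 and 1943 CPM in unmarked and 2055, 1598 and 1836 CPM in marked cells at day 60. At day 270 it had 1974, 1921 and 2502 CPM in unmarked and 1842, 1476 and 1928 CPM in marked cells. The ranges overlapped at both days, and the log2 fold change with days averaged was -0.28 ± 0.12 (adjusted p 0.267 in limma). Rplp1 had 782 to 1435 CPM and Rplp2 264 to 469 CPM over the 12 libraries, with day 270 marked library 2 the lowest for both. Their fold changes between marked and unmarked cells were -0.11 and -0.07 at day 60 and -0.23 and -0.13 at day 270.

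Among small subunit genes, Rps19, the gene most often mutated in Diamond-Blackfan anaemia, had 337, 347 and 289 CPM in unmarked and 320.2, 314 and 287 CPM in marked cells at day 60. At day 270 it had 293, 274 and 334 CPM in unmarked and 283, 198 and 285 CPM in marked cells, the marked ones all below those of day 60. The log2 fold change in marked cells was -0.29 ± 0.17 (adjusted p 0.611 in limma).

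Rps6 lay between 0.325 and 9.66 CPM in the 12 libraries, with no group apart from the others. Its copy Rps6-ps4 (not a member) had 285, 276 and 272 CPM in unmarked and 302, 258 and 262 CPM in marked cells at day 60, and 266, 274 and 358 CPM and 267, 214 and 269.5 CPM at day 270. The groups overlapped, and its log2 fold change was -0.02 ± 0.16 at day 60 and -0.25 ± 0.16 at day 270 (adjusted p 0.997 and 0.492 in limma). Of the 72 pseudogene rows 53 passed the filter and 0 were called in the 8 comparisons.

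Rpl4, a large subunit protein that lines the peptide exit tunnel, had the smallest adjusted p of the members with marking when days were averaged. It was singled out, with Rpl7a, after its values were seen, since these were the 2 members lower without overlap at both days. Rpl4 (ENSMUSG00000032399, GRCm38 chromosome 9, 64173375 to 64178666) had 1383, 1355 and 1359.6 CPM in unmarked cells and 889, 1146 and 1291 CPM in marked cells at day 60. At day 270 unmarked libraries had 1407, 1405 and 1399 CPM, and marked ones 1014, 849 and 1344 CPM. Unmarked libraries lay close together and marked ones spread below them. The log2 fold change was -0.32 ± 0.18 at day 60, -0.42 ± 0.18 at day 270 and -0.37 ± 0.13 with days averaged (adjusted p 0.162 in limma). Without day 270 marked library 3 it was -0.46 and called (adjusted p 0.0463), and without library 2 of that group it was -0.29 (adjusted p 0.164 in limma).
Rpl7a had 161 to 178 CPM in unmarked and 147 to 158 CPM in marked cells at day 60, and 172 to 191 and 111 to 171 CPM at day 270, with a log2 fold change of -0.22 ± 0.12 with days averaged (adjusted p 0.363 in limma).

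Rpl5 and Rpl11, which with the 5S RNA bind Mdm2 when ribosome assembly is disturbed, were low in all libraries. Rpl5 had 0 to 9.66 CPM and Rpl11 1.13 to 4.56 CPM, and neither was called. Rpl13a, whose start is shown above, had 1442 to 1709 CPM in unmarked and 1483 to 1589 CPM in marked cells at day 60, and 1358 to 1752 and 1088 to 1618 CPM at day 270, all overlapping.

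Rpl27 (ENSMUSG00000063316, GRCm38 chromosome 11, 101442298 to 101445529), a large subunit gene, had 20.2, 20.5 and 20.3 CPM in marked cells of day 60 and 13.0, 7.65 and 2.92 CPM in those of day 270. Unmarked libraries had 18.0, 17.8 and 11.1 CPM at day 60 and 15.8, 12.3 and 15.9 CPM at day 270. The marked libraries of the 2 days did not overlap, and the 3 of day 270 were spread. The log2 fold change was -1.53 ± 0.44 (adjusted p 0.292 in limma). Without day 270 marked library 1 it was -1.98 and called (adjusted p 0.0350), and without library 3 it was -0.99 (adjusted p 0.417 in limma). Rpl12 had 3.64 to 8.80 CPM in marked cells of day 60 and 1.19 to 2.82 CPM in those of day 270 (-1.49 ± 0.55, adjusted p 0.408 in limma), and Rpl39, which also lines that tunnel, 33.2 to 40.8 and 13.2 to 27.9 CPM (-0.81 ± 0.29, adjusted p 0.398 in limma).

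Paralogs can take the place of a ribosomal protein in the particle. The pairs Rpl22l1 and Rpl22, and Rps27l and Rps27, could be compared as a ratio within a library, in which the scaling of the library cancels but for the 0.5 CPM added to both genes, and Rpl39l was not analysed here. With these 2 ratios and 2 contrasts, 4 tests form the family; each is an exact two-sided permutation test within strata with 400 relabellings, whose smallest p is 0.005.

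Rpl22l1 (ENSMUSG00000039221, GRCm38 chromosome 3, 28805436 to 28807424) had 31.2, 27.2 and 30.8 CPM in unmarked and 42.3, 24.5 and 35.8 CPM in marked cells at day 60. At day 270 it had 25.8, 23.3 and 25.8 CPM in unmarked and 21.1, 10.5 and 0 CPM in marked cells. The day 270 marked libraries lay below the other 9, and library 3 had 0 of 9241982 reads, which allows a level of up to 0.325 CPM (3 reads, counting error only). Its partner Rpl22 had 375 CPM in that library and 236 to 346 CPM in the others. Rps12, Rps27, Rps29, Rpl23a and Rpl24 also had 0 reads there; that library was lowest for 10 of the 85 members, and it and library 2 had 11301 and 11022 genes with a read, where the other 10 libraries had 12580 to 13506.
In limma the log2 fold change of Rpl22l1 was 0.17 ± 0.85 with marking at day 60, -2.37 ± 0.85 with marking at day 270 (adjusted p 0.231) and -2.79 ± 0.85 between days in marked cells (adjusted p 0.312). Without day 270 marked library 1 these last values were -3.44 and -3.85, and both were called (adjusted p 0.0287 and 0.0330). Without library 3, the one with 0 reads, they were -0.73 and -1.14 and neither was called (adjusted p 0.254 and 0.344 in limma). The log2 ratio of Rpl22l1 to Rpl22 differed by -1.42 between days (exact permutation p 0.035, adjusted p 0.07) and by -1.07 with marking (p 0.33, adjusted p 0.33). The difference between days was -0.50 without day 270 marked library 3 (adjusted p 0.15). The ratio was -3.67, -4.43 and -9.55 in the day 270 marked libraries and -3.64 to -2.91 in the other 9.

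Rps27l is known as a p53-induced paralog of Rps27. The Rps27l gene (ENSMUSG00000036781, GRCm38 chromosome 9, 66946086 to 66949516) had 184, 197 and 164 CPM in unmarked and 207, 174 and 190.5 CPM in marked cells at day 60. At day 270 it had 157, 158 and 192 CPM in unmarked and 209.9, 168 and 226 CPM in marked cells. The groups overlapped at each day, and with days averaged the log2 fold change was 0.16 ± 0.12 (adjusted p 0.526 in limma).
Rps27 (ENSMUSG00000090733, GRCm38 chromosome 3, 90212522 to 90213651) had 4.39, 3.09 and 4.06 CPM in unmarked and 1.29, 2.62 and 2.50 CPM in marked cells at day 60. At day 270 it had 2.85, 2.69 and 4.02 CPM in unmarked and 2.70, 1.07 and 0 CPM in marked cells. These are low counts, 375 reads over the 12 libraries. Its copy Rps27rt had 7331 reads, 19.5 times as many. Of the copy's 50-base words 91.1% also stand in transcripts of other genes, among which Rps27 shares the most.

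The log2 ratio of Rps27l to Rps27 was higher in marked than in unmarked cells by 1.24 (exact permutation p 0.005, the smallest possible, adjusted p 0.02). Within specimens the difference was 1.61, 0.03 and 0.82 at day 60 and 0.48, 1.11 and 3.41 at day 270, positive in 6 of 6 pairs; 1.61 and 0.48 are the pairs of replicate 1, whose libraries were numbered apart from the others. With the specimen as a block, an exact sign-flip test over the 6 pairs gave p 0.03125, the smallest possible, and adjusted p 0.0625, which this number of pairs cannot pass beside the p of 0.4375 of the other ratio. The largest of the pair differences belongs to day 270 marked library 3, with 0 reads of Rps27. The call was lost without any 1 of the 3 day 270 unmarked libraries (1.25, 1.27 and 1.21 without libraries 1, 2 and 3; adjusted p 0.09, 0.08 and 0.11). Against the sum of Rps27 and Rps27rt, a denominator chosen after the data were seen, the difference was 0.46 (exact permutation p 0.01, adjusted p 0.03 over 6 tests). Rps27 and Rps27rt together gave 64.7 ± 12.5 CPM (unmarked) and 52.8 ± 7.73 CPM (marked) at day 60, and 57.2 ± 12.03 and 45.8 ± 11.2 at day 270 (n = 3). Between days the ratio to Rps27 differed by 0.56 (exact permutation p 0.24, adjusted p 0.32).

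**Figure D5:**
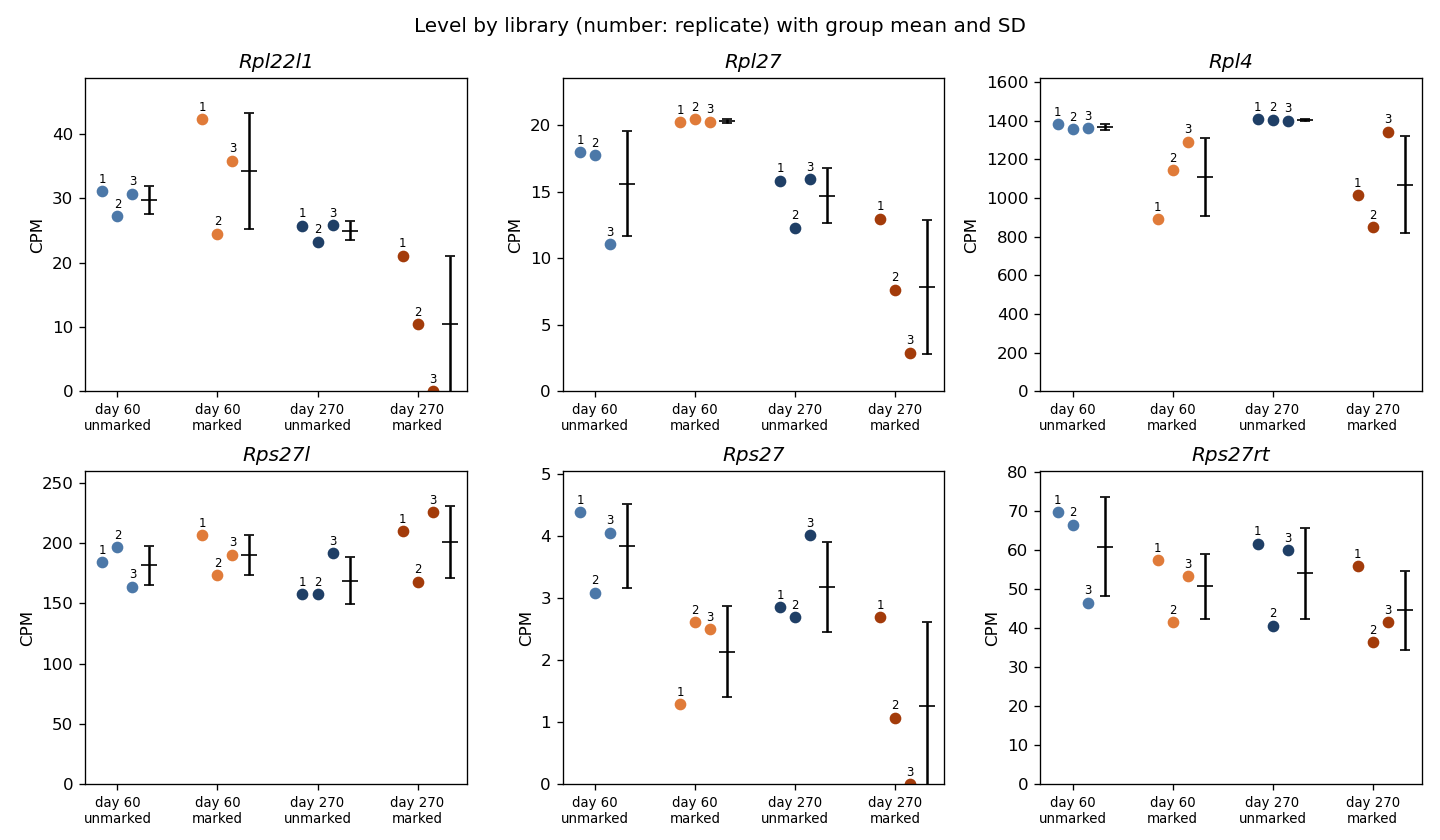
CPM of 6 genes in each library (points, numbered by replicate), with group mean and SD (n = 3; bars end at the axis at 0). Rpl22l1 is at 0 and Rpl27 at 2.92 CPM in day 270 marked library 3, Rpl4 is lower in every marked than in every unmarked library of the same day, and Rps27l stays between 157 and 226 CPM while Rps27 stays under 5 CPM.

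The other paralogs and copies with their partners were not called in the 8 comparisons. Rpl36al, whose protein is close to that of Rpl36a, had 238 to 475 CPM, against 0 to 15.8 CPM for Rpl36a. Rpl37rt, a retrogene of Rpl37, had 204 to 360.1 CPM and 3.23 times the reads of its parent, which had 82.0 to 109 CPM. Rps4x had 552 to 829 CPM and its paralog Rps4l 0 to 8.40 CPM. Rpl3, which forms part of the peptidyl transferase centre, had 88.3 to 126 CPM, and Rpl10, which completes that centre, 26.9 to 48.5 CPM.

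The spread of members over libraries was set beside that of genes of like level. Over the 12 libraries the median coefficient of variation was 13.5% for the 35 members between 100 and 1000 CPM and 16.6% for the 1290 genes in that range. For the 9 members over 1000 CPM it was 14.3%, and for 74 genes 15.0%. For the 23 members between 10 and 100 CPM it was 17.7%, and for 6449 genes 26.9%. For the 18 members between 1 and 10 CPM it was 49.4%, and for 3810 genes 61.8%. The members' median was the lower one in all 4 ranges; the difference was not tested.

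The ribosomal genes outside the rule and the factors that build the ribosome were read from lists. Fau, which encodes a ribosomal protein fused to a ubiquitin-like protein, had 17.4 to 36.2 CPM and was not called. Of 22 genes of translation factors and other TOP messenger RNAs 1 was called (1.84% of all genes were in that contrast). This was Pabpc1, the poly(A)-binding protein, which fell with marking when days were averaged. Its levels were 735, 542 and 601 CPM in unmarked and 349, 389 and 497 CPM in marked cells at day 60, and 686, 676 and 607 CPM and 458, 332 and 543 CPM at day 270. The groups did not overlap at either day (-0.60 ± 0.13, adjusted p 0.0257 in limma). The median of this list for that contrast was -0.24, where that of the 85 members was -0.09 and that of all genes -0.18. Of the 22 genes, 3 were positive and 19 negative, and 11 had an unadjusted p under 0.05 in limma (16.9% of genes).

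Of the 49 ribosome biogenesis genes tested, 2 were called lower with marking when days were averaged (234 of all 12704 genes, 1.84%, were called in either direction), Noc3l and Nop58, which act in assembly of the large subunit and in box C/D small nucleolar particles. Nop58 had 34.9, 44.6 and 44.7 CPM in unmarked and 23.6, 30.3 and 33.3 CPM in marked cells at day 60, and 40.6, 44.1 and 40.4 CPM and 26.8, 10.3 and 16.9 CPM at day 270 (-0.90 ± 0.21, adjusted p 0.0359 in limma). Both were also called between day 270 marked and day 60 unmarked cells (adjusted p 0.0150 and 0.0395 in limma). Noc3l was called at day 270 alone as well, with 13.3, 21.7 and 15.3 CPM in unmarked and 4.45, 1.21 and 0 CPM in marked cells (-3.38 ± 0.62, adjusted p 0.0194 in limma). The list's median with days averaged was -0.23, with 5 positive and 44 negative, beside -0.18 over all genes, of which -0.12 is the shift against TMM scaling. Of the 16 genes of the mTOR pathway and Larp1, and of the 7 small nucleolar RNA host genes in the table (of 11 listed), 0 were called in the 8 comparisons. Of 79 mitochondrial ribosomal protein genes 1, Mrpl17, was called higher with marking (days averaged, 0.59 ± 0.14, adjusted p 0.0290 in limma). It was also called between day 270 marked and day 60 unmarked cells (0.84 ± 0.19, adjusted p 0.0320 in limma). In these contrasts 1.84% and 1.54% of all genes were called in either direction. This list's median with days averaged was 0.01, beside -0.18 over all genes.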

How the data were processed

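RNA was sequenced from sorted marked and unmarked bone marrow plasma cells in 12 libraries, 3 for each of 4 groups taken from the labels. Libraries were made with RNeasy Micro and TruSeq RNA kits, per the labels' protocols, and the build GRCm38 and limma are named in the submitters' processing notes. Neither the aligner nor the counter is given in the sources used here, and the sort gates are not stated. Per the file headers, the deposited table of all genes gives CPM per library, with the authors' log2 fold changes and p-values, which were not used. A second deposited table gives counts for 230 genes and holds 0 members.

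Multiplying CPM by 1 total per library gave whole reads for 100% of 151342 values under 1000 reads (tolerance 0.05), equal to the count table in 100% of cells. On these reads edgeR's quasi-likelihood test and DESeq2 were run as alternatives and called 0 members in each of the 8 comparisons. Of all genes tested, edgeR called 0 to 204 and DESeq2 5 to 573 in a comparison. The main test was limma 3.58.1 (trended prior, two-sided, 8 residual degrees of freedom, 12 libraries, no block) in R 4.3.3 on log2(CPM + 0.5). filterByExpr of edgeR 4.0.16 (minimum count 10) kept 12704 genes and removed 1515. Other settings were DESeq2 1.42.0, TMM, pseudocounts 0.1 and 1, no filter and only the groups compared. Further ones were a block, a library-number term, totals without ribosomal RNA-like features and Jchain, and leaving libraries out. The block was the specimen for marking within days and the replicate number for comparisons that cross days. The fit was also run on simulated counts, drawn independently for each gene and library. They do not model the pairing of libraries or reads shared by a gene and its copies, and their outcome is not used here. Intervals cover 95%, and floors and intervals of counts cover counting error only. Lengths and positions are from GENCODE M21, which held all 88 members. Motifs and start windows are from RefSeq promoters of GRCm38.p6.

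Marked and unmarked libraries of 1 day and replicate share a specimen in the labels, so the number pairs them. Residual correlations had a median of 0.0556 within specimens (-0.0109 to 0.115, 6 pairs) and of -0.0194 between them (-0.104 to 0.0301, 12 pairs). Replicate 1 of every group has library numbers 5 to 8, apart from the others. In replicates 2 and 3, unmarked libraries have numbers 13 to 16 and marked ones 22 to 27. In these replicates marking cannot be told apart from the library number. The library-number term separates replicate 1 from the rest only, so it does not account for this.

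The members, lists and tests were chosen with earlier results of these data known. Named were the 3 largest positive and negative fold changes in each of the 4 simple comparisons, the 5 highest and lowest per kb, the P-stalk genes, paralogs with their partners, and Rps6, Rpl5, Rpl11, Rps19 and Rpl13a. Other genes come from the lists, or were named after their values were seen (Rpl4, Rpl7a, Rps6-ps4, and members listed for an unadjusted p or for groups that do not overlap). Values of a few single genes are not reported here.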

Additional observations from a re-analysis of the deposited data

Results flagged for a closer look

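The mean difference between marked and unmarked libraries in the log2 ratio of Rpl22l1 to Rpl22 had opposite signs at the 2 days. At day 60 the ratios of marked and unmarked libraries overlapped. Marked minus unmarked was 0.40, 0.0044 and 0.26 in the 3 pairs of day 60, a mean of 0.22, and -0.17, -0.94 and -5.99 in those of day 270, a mean of -2.37. The difference between the days was -2.59, with an exact permutation p of 0.055 over 400 relabellings, so it did not pass 0.05. The pair at -5.99 holds the library with 0 reads of Rpl22l1, whose ratio rests on the pseudocount.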

How the results depend on the processing

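Under 23 alternative settings, 12 of which left out 1 library, 180 of 184 counts of called members were 0. Without day 270 marked library 1, 1 member (Rpl22l1) was called with marking at day 270, 2 (Rpl22l1 and Rpl27) between days in marked cells and 2 between day 270 marked and day 60 unmarked cells. Without day 270 marked library 3, 1 (Rpl4) was called with marking over both days. Leave-one-out counts ranged from 0 to 1, 0 to 2, 0 to 2 and 0 to 1 in these comparisons. The number of all genes called also differed between settings. With marking at day 270 it was 0 with only the groups compared and 256 with DESeq2. Counts of all genes called in the leave-one-out fits are not set beside these calls, which therefore do not single out the members. The members' median with marking at day 270 was 0.0071 with DESeq2, and that of the difference between days in the effect of marking ranged from -0.17 to 0.052 with 1 library left out. With a block as an added term 0 members were called. The block was the specimen where marking was compared within days. It was the replicate number in comparisons that cross days, whose specimens differ. The Rps27l to Rps27 difference with marking was 1.24 with or without the specimen block by construction. Its exact sign-flip p was 0.03125, the smallest that 6 pairs allow, and its adjusted p 0.0625, so this test says nothing about stability. Leaving out 1 library, that difference ranged from 0.84 to 1.53, and the Rpl22l1 to Rpl22 difference between days from -1.97 to -0.50; the latter passed 0.05 without day 60 unmarked library 2 (-1.48, exact permutation p adjusted 0.02) and without day 270 marked library 1 (-1.97, adjusted 0.04). Of the single genes, Rpl5 and Rps4l, with 0 reads in some libraries, changed sign. Rpl5 with marking at day 60 was 0.0032 without the 2 libraries richest in ribosomal RNA-like reads (leave-one-out -1.61 to 0.0032). Rpl5 between days in marked cells was -0.84 without those 2 (leave-one-out -0.11 to 2.23), and Rps4l was -0.28 (leave-one-out -0.13 to 1.95). Rps4l with marking at day 270 ranged from -0.039 to 1.33 with 1 library left out. The cause of these changes was not tested. The 95% interval lay within a 2-fold change for 60 to 65 of 85 members in the 4 comparisons between single groups that differ in marking or in day, the 44 members over 100 CPM among them.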
